A study of Rattus norvegicus with 2 samples.

Results

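A set of 9 genes that control the path from glucose to pyruvate and on to acetyl-CoA was followed in the liver of diabetic rats given a lupin protein: Hk1 and Hk2, Gckr, Pfkl, Pfkfb1, Pklr, Ldha, Pdha1 and Pdhb. The members were taken as the spots whose printed symbol is exactly one of these 9 names, and 8 of the 9 had a spot. Pdha1 was not analysed here. The 8 genes were carried by 11 probes, 3 for Hk1, 2 for Hk2 and 1 for each of the others, out of 21574 probes and 17156 gene symbols measured in all.

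The hexokinases trap glucose in the cell by phosphorylating it. Hk1 and Hk2 encode high-affinity isozymes found mainly outside hepatocytes, and Gckr encodes a regulatory protein that restrains glucose phosphorylation in the liver. Phosphofructokinase commits the sugar to glycolysis, pyruvate kinase makes pyruvate at the end, lactate dehydrogenase interconverts pyruvate and lactate, and the pyruvate dehydrogenase complex passes pyruvate on to acetyl-CoA. Insulin is known to favour the glycolytic direction of this path in liver, and insulin deficiency the reverse.

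The animals were adult male Wistar rats, all given streptozotocin, which kills the insulin-producing beta cells, at 65 mg/kg to make them diabetic, after an overnight fast of 12 h, and all found above 200 mg/dl of blood glucose 72 h later. The treated group received γ-conglutin, a protein of lupin seeds, at 120 mg/kg for 7 days, and the control group received the vehicle, 0.9% NaCl, so no rat without diabetes is among the samples. Each group was 5 rats whose liver RNA formed 1 pool, and these pools were hybridised together to each of 2 two-colour arrays: vehicle in Alexa555 and γ-conglutin in Alexa647 on array 1, and the dyes exchanged on array 2. The comparison asks which transcripts differed between the pools. With 1 sample per treatment on 2 technical repeats there is no test over rats and no p-value, and every difference below is a difference between these 2 pools.

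Each ratio sets the γ-conglutin pool over the vehicle on the log2 scale after loess normalization, and is given for array 1 and array 2 and then as the mean ± SD over the 2 arrays. Because the dyes were exchanged, a probe's own dye difference enters that SD, which is not the error of the mean. Raw intensities are scanner units before normalization. They still carry the dye, so the raw values of the pools are not compared without the ratio. The typical library spot had a raw intensity of 1683 (Alexa555) and 1287 (Alexa647) on array 1, and of 1641 and 1179 on array 2, all medians, while the background medians were 37.5 to 48.3. Across the 21574 probes, the ratios of array 1 and array 2 had a Pearson's r of -0.44, over probes that share the same 2 pools and are not independent replicates, and 67.3% of probes had a mean dye ratio larger in size than their mean pool ratio. The direction of each ratio rests on the dyes given in the labels and on the pool names in the column headers, which match.

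The printed names are a further limit of these arrays, which carry mouse probes. Across the 888 symbols with exactly 2 probes, the mean log2 intensities of the pair had an r of 0.03 and their mean log2 ratios an r of 0.04, across genes. Of the hepatocyte markers, 9 of 10 were measured and all 9 were above the median intensity of the arrays, from percentile 51.6 for the apolipoprotein gene Apoa1 to 93.5 for the albumin gene Alb. Of the markers of other tissues, 2 of 3 measured for skeletal muscle and 2 of 3 for fat cells were also above that median. The muscle markers ran from percentile 20.7 for the troponin gene Tnnt3 to 82.8 for the muscle creatine kinase gene Ckm. For erythrocytes, macrophages and endothelial cells 1 of 4 each was above it, and for stellate cells 3 of 5. Probes printed with one name thus hardly resembled each other in brightness or in ratio, and whether the printed names follow the spotted probes was not tested. Each value below is therefore that of the probe carrying the name. Whether its signal comes from the rat transcript of that name, in whole or in part, was not tested. In liver RNA, moreover, a lower share of cells of a type and less RNA per cell cannot be told apart.

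**Figure D1:**
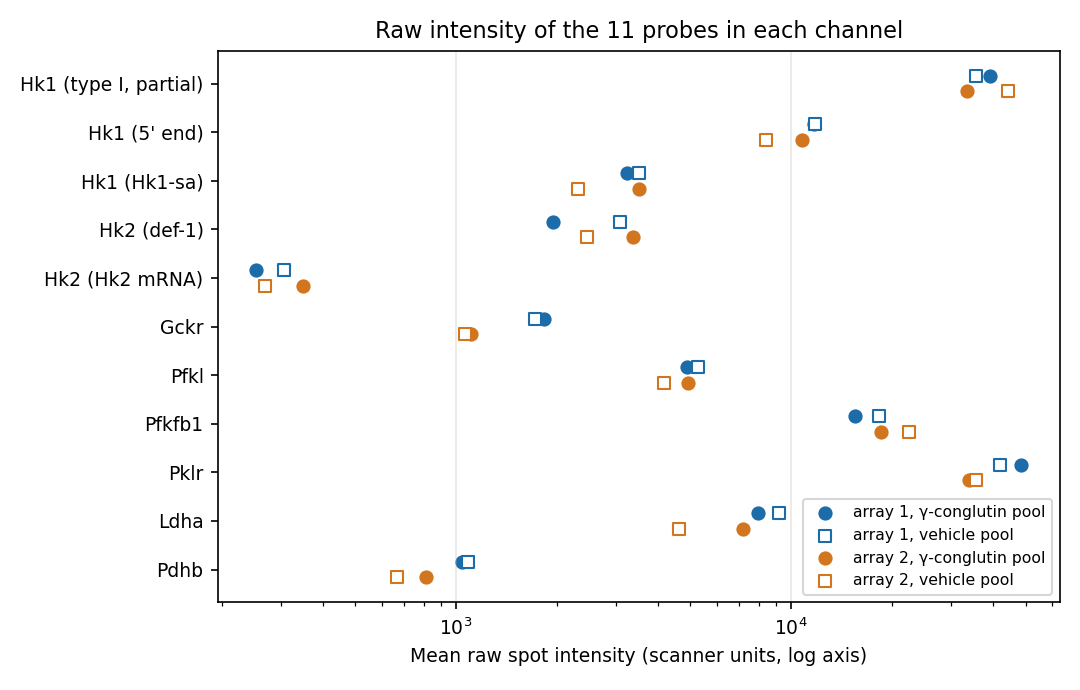
Mean raw intensity of each of the 11 probes (log axis, scanner units) in the γ-conglutin pool (filled circles) and the vehicle pool (open squares) on array 1 (blue) and array 2 (orange). Intensities run from 254 for an Hk2 probe to 48588 for Pklr, and the pools lie close together for most probes.

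All 11 probes had a single spot, were above background in every channel, and were above the 95th percentile of the empty spots, with raw intensities of 5.51 to 1120 times their local background. None of the 11 differed by 1.5-fold between the pools on either array, although with plain median centring the brightest Hk1 probe and Pfkfb1 did so on array 2 alone. Over all probes, 0.973% passed 1.5-fold on array 1 and 3.02% on array 2 in either direction. For 1.5-fold in one direction on both arrays the share was 0.0% higher and 0.0% lower, and 0 members passed. At a log2 ratio of 0.32 on both arrays 0 members passed in either direction, where the share over all probes was 0.00464% for higher and 0.301% for lower. Of the 11 probes, 4 had one sign on both arrays, the 3 of Hk1 and that of Pfkfb1, against 32.7% of all probes (16.6% positive and 16.1% negative), so the members stood near the background. Taking the brightest probe of each gene, 5 of 8 genes had a mean ratio above 0 and the median was 0.01, the same as the 0.01 of all probes. The same median was -0.04 on array 1 and -0.18 on array 2.

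**Figure D2:**
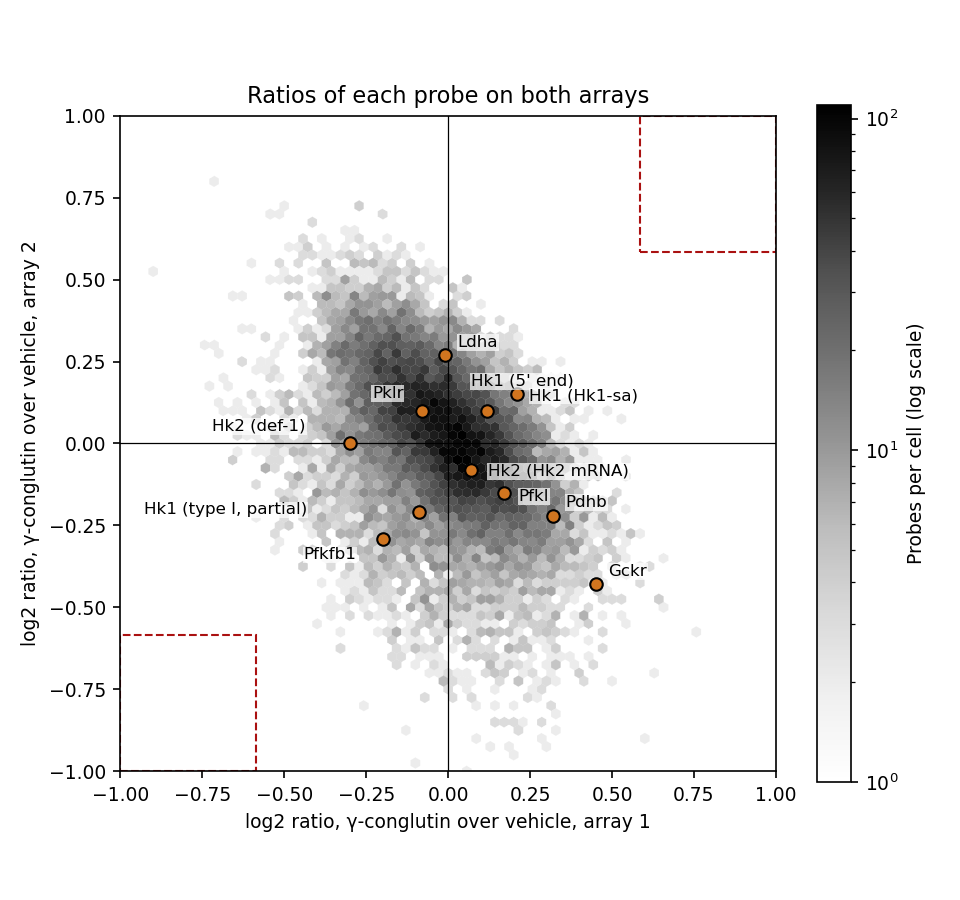
Log2 ratio of γ-conglutin over vehicle on array 1 (x) and array 2 (y) for 21574 probes (grey, probes per cell on a log scale), with the 11 probes in orange. Dashed boxes mark 1.5-fold in one direction on both arrays, and hold no member. The grey cloud slopes downward (r = -0.44), and Gckr lies far along that slope, at 0.45 and -0.43.

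Hk1, the widely expressed hexokinase, was printed 3 times, and its probes did not give one answer. The brightest, annotated as a partial hexokinase type I mRNA (U89409), read 39209 in the γ-conglutin pool and 35539 in the vehicle pool on array 1, and 33481 and 44424 on array 2. Its log2 ratios were -0.09 and -0.21, a mean of -0.15 ± 0.09, which stood at percentile 12.2 of all probes. Lower with γ-conglutin on both arrays, this probe was nevertheless not unusual for its brightness, since 23.0% of probes of like intensity lay as far or farther in that direction.

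The second Hk1 probe, for the 5′ end of the mRNA (L16950), read 11660 and 11738 in the γ-conglutin and vehicle pools on array 1, and 10792 and 8430 on array 2. Its ratios were 0.12 and 0.10, a mean of 0.11 ± 0.01. The third, annotated as Hk1-sa (L16948), read 3241 and 3509 on array 1 and 3525 and 2314 on array 2. Its ratios were 0.21 and 0.15, a mean of 0.18 ± 0.04, the highest among the members at percentile 97.1 of all probes, and 2.92% of probes of like intensity were as high.

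Within Hk1, 2 probes read higher in the γ-conglutin pool on both arrays and 1 read lower on both. The means of the 3 probes spanned 0.33, with 0.30 on array 1 and 0.36 on array 2, where the median span over 88 symbols with 3 probes was 0.17. Their average was 0.05. The direction for Hk1 thus depends on the probe, and with 1 pool per treatment the spread between the probes exceeds the mean of each. The Hk1-sa probe kept a positive ratio on both arrays under all 7 ways of processing compared, the 5′ probe under 5 of 7, and the partial type I probe a negative one under 6 of 7. With plain centring on the array median the last gave 0.44 and -0.83.

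Hk2, the insulin-responsive isozyme of muscle and fat, had 2 probes. The brighter, annotated as def-1 mRNA (X96699), read 1950 and 3084 in the γ-conglutin and vehicle pools on array 1, and 3376 and 2454 on array 2. It had the lowest ratio of any member on array 1, -0.30, but 0.00 on array 2, a mean of -0.15 ± 0.22. The dimmer Hk2 mRNA probe (NM_013820) read 254 and 306 on array 1 and 350 and 270 on array 2, the dimmest of the 11. Its ratios were 0.07 and -0.08, a mean of 0.00 ± 0.10. The gap between the means of these probes was 0.15, against a median gap of 0.09 over the 888 symbols with 2 probes. In these values neither Hk2 mean exceeded its SD over the arrays. The def-1 probe was negative on both arrays under 3 of 7 ways of processing, with -0.12 and -0.16 by print-tip loess, -0.11 and -0.10 with the deposited net intensities and -0.11 and -0.07 in the value table.

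Gckr encodes the liver's brake on glucose phosphorylation. Its probe read 1831 in the γ-conglutin pool and 1726 in the vehicle pool on array 1, and 1111 and 1065 on array 2. The ratios were the most opposed of the members, 0.45 on array 1 and -0.43 on array 2, a mean of 0.01 ± 0.62. On both arrays the γ-conglutin pool was slightly the brighter before normalization, and after it the Alexa647 channel was the brighter, by a mean log2 dye ratio of 0.44, which stood at percentile 98.2 of all probes. With loess fitted within print-tip blocks, the printing areas of the array, the ratios shrank to 0.27 and -0.24 and the mean stayed at 0.01. Over the 7 ways of processing, the mean of Gckr ran from 0.00 to 0.01.

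Pfkl encodes the liver type of phosphofructokinase. The probe read 4886 and 5267 in the γ-conglutin and vehicle pools on array 1, and 4936 and 4158 on array 2. The ratios were 0.17 and -0.15, a mean of 0.01 ± 0.23. The arrays were opposed and nearly balanced, so no difference between the pools was seen for this probe. The 7 ways of processing gave means of -0.04 to 0.01.

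Pfkfb1 encodes the liver bifunctional enzyme that makes and breaks down fructose 2,6-bisphosphate, the signal that turns phosphofructokinase on and fructose bisphosphatase off. It had the lowest mean ratio of the members. The γ-conglutin pool read 15476 and the vehicle pool 18215 on array 1, and the readings were 18574 and 22381 on array 2. The γ-conglutin pool was thus the dimmer one with either dye, before any normalization, as was the case for no other member. The log2 ratios were -0.20 and -0.29, a mean of -0.25 ± 0.06, or 0.843-fold. This mean stood at percentile 5.41 of all probes, and 15.0% of probes of like intensity were as low.

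The sign for Pfkfb1 was negative on both arrays under 6 of 7 ways of processing, and the mean ran from -0.31 to -0.24, but the size on each array was less settled. Print-tip loess gave -0.06 and -0.51, and centring on the median gave 0.07 and -0.69. The spot was uneven on array 1, where the pixels varied by 45.5% and 45.0% (CV) in the γ-conglutin and vehicle channels, the most among the member spots, whose median was 7.41%. On array 2 the corresponding values were 18.9% and 11.6%. The 5 neighbouring probes had median ratios of -0.13 on array 1 and 0.18 on array 2, so the neighbours followed Pfkfb1 on array 1 and opposed it on array 2. The part of spot quality and position in the ratio was not tested.

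Pklr encodes the pyruvate kinase of liver and red cells, and was the brightest member, at 48588 in the γ-conglutin pool and 41954 in the vehicle pool on array 1, and 33932 and 35519 on array 2. The ratios were -0.08 and 0.10, a mean of 0.01 ± 0.13. No difference between the pools was seen on this scale, and the ways of processing gave means of 0.01 to 0.09. Without an intensity-dependent normalization the arrays stood far apart, at 0.51 and -0.49 with median centring, and the same setting parted the arrays for the brightest Hk1 probe and for Pfkfb1, which are among the brighter probes too. Since Pklr is also made in red cells, erythrocyte markers were read beside it. Of 5 listed, 4 were measured, with a median ratio of -0.13 that ran from -0.18 ± 0.01 for the heme synthesis gene Alas2 to 0.10 ± 0.21 for the globin gene Hba-a1. Their summed intensity over background was 4305 and 5940 in the γ-conglutin and vehicle pools on array 1, and 5203 and 3484 on array 2. Of the 4, 3 were above background in every channel, and their part in the Pklr value was not tested.

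Ldha encodes the lactate dehydrogenase A subunit, the main form in liver and muscle. It read 7966 and 9166 in the γ-conglutin and vehicle pools on array 1, and 7168 and 4620 on array 2. The ratios were -0.01 and 0.27, a mean of 0.13 ± 0.20, the highest gene-level value of the members at percentile 92.4 of all probes, where 12.8% of probes of like intensity were as high. The excess came from array 2 alone with global loess. With print-tip loess the ratios were 0.18 and 0.12, and both arrays were positive under 4 of 7 ways of processing, with a mean from 0.13 to 0.17. The SD between the arrays, which also holds the probe's dye difference, exceeded the mean in the values first given.

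Pdhb encodes the beta subunit of the first enzyme of the pyruvate dehydrogenase complex. The probe read 1042 and 1086 in the γ-conglutin and vehicle pools on array 1, and 811 and 669 on array 2. The ratios were 0.32 and -0.22, a mean of 0.05 ± 0.38. Like Gckr, after loess it was the brighter in Alexa647 on both arrays, with a mean dye ratio of 0.27 at percentile 92.4 of all probes. In 6 of the 11 member probes the dye ratio was larger in size than the pool ratio, where the share over all probes was 67.3%.

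**Figure D3:**
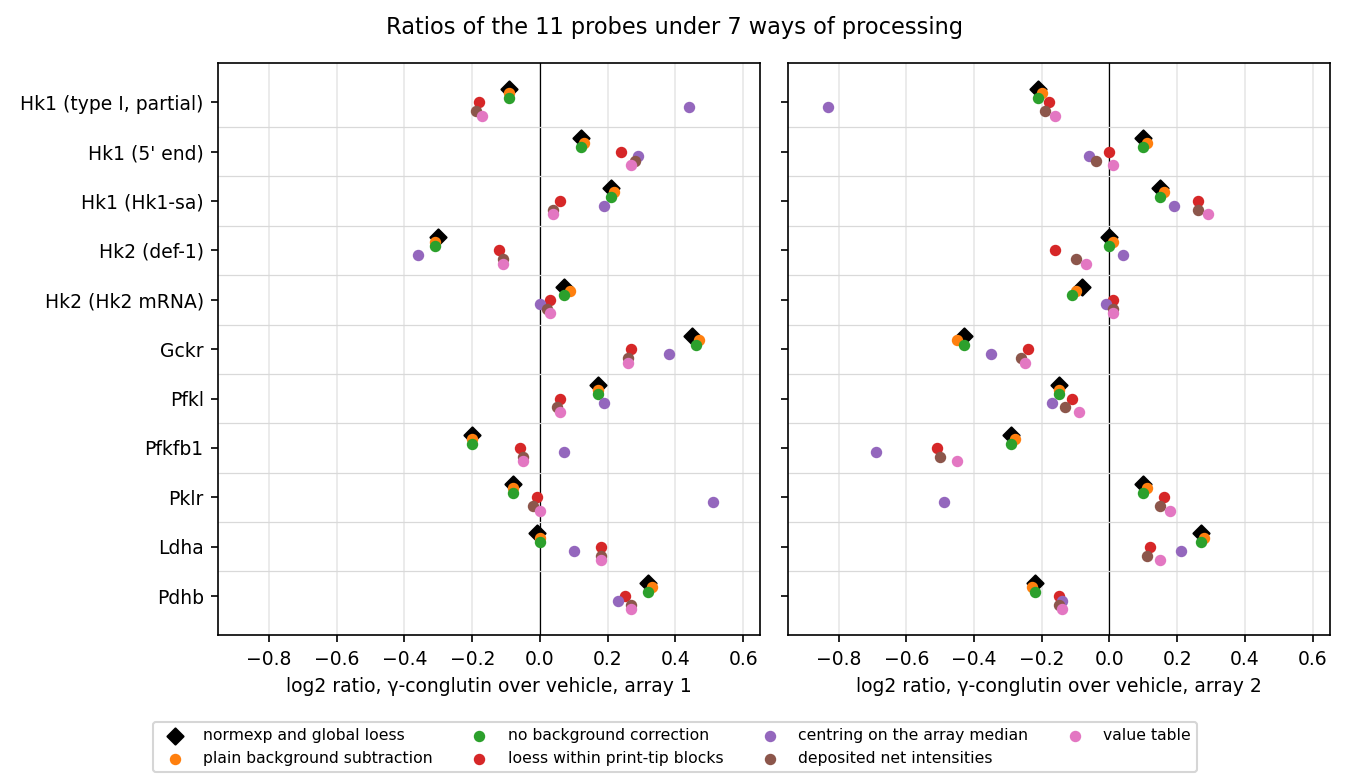
The 11 probes' log2 ratios (γ-conglutin over vehicle) on array 1 (left) and array 2 (right) under 7 ways of processing. Black diamonds are the values given first in the text and coloured points the other settings. Pfkfb1 lies below 0 in 6 of the 7 settings on array 1 and in all 7 on array 2, while Gckr lies above 0 on array 1 and below 0 on array 2 throughout.

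Around these genes, a wider list of 41 genes of glycolysis and pyruvate use held 31 that were measured, all of them above the 95th percentile of empty spots. With global loess none passed 1.5-fold on either array, and none reached 0.32 on both. With median centring, the enolase gene Eno2, named after its values were seen, passed 1.5-fold on each array in opposite directions, at 0.80 and -0.74, and Tpi1 on array 2, at -0.62. The mean was above 0 for 13 and below 0 for 18, with a list median of -0.02, against 0.01 for all probes, and with 0.02 on array 1 and -0.04 on array 2. Of the 31 genes, 10 had one sign on both arrays, 4 positive and 6 negative, which is near the 32.7% of all probes (16.6% positive and 16.1% negative).

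The genes listed for the isomerase and phosphofructokinase steps were Gpi1, the glucose phosphate isomerase, and the muscle and platelet types of phosphofructokinase, Pfkm and Pfkp. All 3 were negative on both arrays, where 16.1% of all probes were, and their grouping at these steps was not tested. Pfkm had -0.24 and -0.35, a mean of -0.30 ± 0.08 from raw values of 4338 and 6211 in the γ-conglutin and vehicle pools on array 1 and 5032 and 4924 on array 2. Pfkp had -0.16 and -0.12, a mean of -0.14 ± 0.03. Gpi1, named after its values were seen, had -0.19 and -0.27, a mean of -0.23 ± 0.06. Their signs were negative on both arrays under all 7 ways of processing, and 5.29% (Pfkm), 14.8% (Pfkp) and 7.65% (Gpi1) of probes of like intensity were as low. The pool ratio of the liver type, Pfkl, had a mean of 0.01 ± 0.23 from opposed arrays, and the difference between its ratio and that of Pfkm was not tested. Neither muscle nor platelet type is the main phosphofructokinase of hepatocytes. Skeletal muscle markers, 3 of 4 measured, had means over the arrays from -0.06 to 0.01 with a median of -0.06, single-array ratios from -0.22 to 0.09, and 0 of the 3 had one sign on both arrays.

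Of the other bifunctional enzymes, neither had one sign on both arrays. Pfkfb2, known as the heart form, had 0.16 and -0.19, a mean of -0.02 ± 0.24, from the brighter of its 2 probes. Pfkfb3, known as the inducible form, had -0.22 and 0.02, a mean of -0.10 ± 0.17. Of glucose entry and its control, the liver glucose transporter gene Slc2a2 had 0.05 and -0.15, a mean of -0.05 ± 0.14. Its probe was dim, at percentile 12.2 of intensity, with 202 and 240 raw units in the γ-conglutin and vehicle pools on array 1. On array 2 the readings were 227 and 185. Mlxipl encodes the glucose-sensing transcription factor that is known to activate Pklr in liver. It had 0.19 and 0.10, a mean of 0.14 ± 0.07, positive on both arrays under 7 of 7 ways of processing, with 10.5% of probes of like intensity as high. Pklr, at -0.08 and 0.10, did not share that sign on array 1.

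Among the 10 measured genes of lower glycolysis, from aldolase to enolase, 4 had a mean above 0 and the median was -0.01. The highest was the Gapdh library spot, at -0.11 and 0.32, a mean of 0.10 ± 0.30. The 231 control spots for Gapdh, left out of the loess fit, had -0.29 on array 1 and -0.18 on array 2, a mean of -0.23. Both sets of spots were negative on array 1, and they differed in sign on array 2. The lowest was Eno3, the muscle enolase, at -0.23 and -0.16, a mean of -0.19 ± 0.05. This was the brighter of 2 probes for the gene, and the other is not given here. The brighter probe was negative on both arrays under 7 of 7 ways of processing, with 18.4% of probes of like intensity as low. Tpi1, the triose phosphate isomerase, named after its values were seen, was opposed between the arrays, at 0.46 and -0.53, a mean of -0.03 ± 0.70.

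On the lactate side, 4 of 5 genes had a mean above 0 and the median was 0.04. Ldhb, which encodes the heart-type lactate dehydrogenase subunit, was highest at 0.14 and 0.00, a mean of 0.07 ± 0.10. The lactate transporter gene Slc16a1 was lowest at 0.38 and -0.47, a mean of -0.04 ± 0.60. Of the pyruvate dehydrogenase complex and its control, 5 of 10 genes were measured with a median of -0.03. Dlat, the acetyltransferase subunit, was highest at 0.00 and 0.10, a mean of 0.05 ± 0.07, the same mean as Pdhb. Pdk4, the kinase that switches the complex off in fasting and diabetes, was lowest at -0.24 and -0.03, a mean of -0.14 ± 0.15, with one sign on both arrays under 6 of 7 ways of processing and 8.85% of probes of like intensity as low. The genes of the mitochondrial pyruvate carrier, printed under the older symbols Brp44 (Mpc2) and Brp44l (Mpc1), had means of 0.10 ± 0.35 and -0.08 ± 0.19, with opposed arrays in both.

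**Figure D4:**
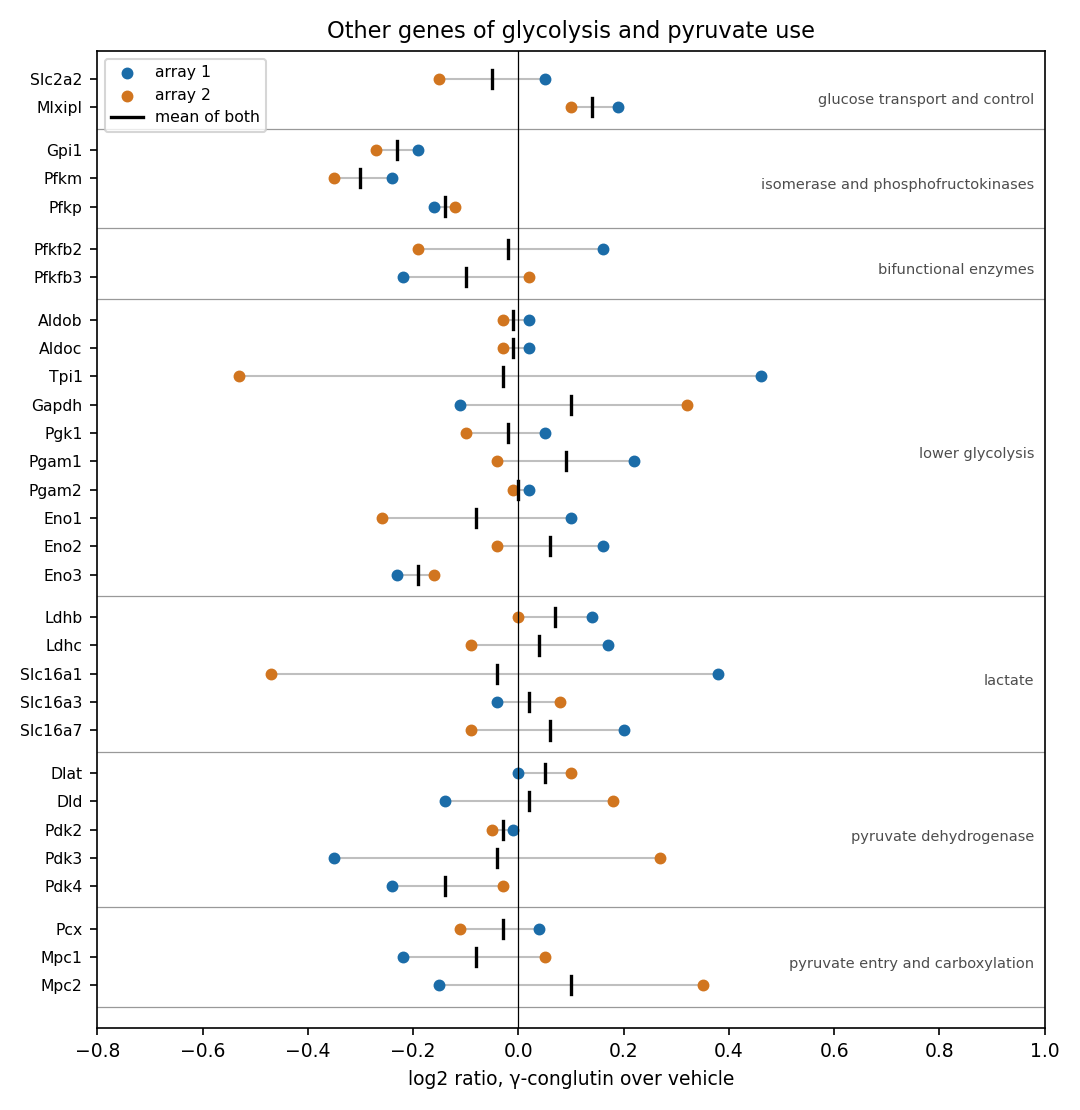
Log2 ratios (γ-conglutin over vehicle) for further genes of glycolysis and pyruvate use, by step of the path from glucose transport on. Points are array 1 (blue) and array 2 (orange) and black bars the mean of both. Gpi1, Pfkm and Pfkp lie below 0 on both arrays, and Tpi1 and Slc16a1 have the widest gaps between the arrays.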

How the data were processed

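Liver cDNA of 2 RNA pools was measured on 2 arrays, with total RNA labelled during first-strand synthesis per the labels' protocols. Per the file headers, the deposited tables hold each spot's mean raw intensity and background intensity with their SDs, a net intensity per dye and their ratio, Alexa555 over Alexa647. The deposited value table equalled log2 of that ratio to within 9.3e-05. The authors' scaling of the Alexa647 net intensity, the scanner and the software are not given in the sources used here.

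From the raw and background intensities, limma 3.58.1 under R 4.3.3 corrected the background (normexp, offset 50) and fitted global loess within each array, with Gapdh control and empty spots at weight 0. The sign of array 2 was turned. Spots of one probe ID and symbol were averaged, and a probe had to exceed its background by 2 SD on each array in 1 channel or more, which removed 59 of 21633. At gene level, the brightest of several probes stands for the gene. Probes of like intensity are those within 5 percentile points of mean intensity. Tables were summarised with Python 3.11.15, numpy 2.4.6 and pandas 2.3.3, and drawn with matplotlib 3.10.9. The steps were tested with known folds put into the γ-conglutin channel of 200 library spots, compared with the same spots unchanged. Such a test covers the arithmetic and the sign, and not noise, dye differences or probe identity. The number of arrays limits the precision.

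The 9 members and all gene lists were chosen with earlier results of these data known. Named genes are the 9 members and, of the wider list, any past the size rule and the highest and lowest mean of each group. One gene taken by the rule is not reported singly and enters only the totals of the wider list. Alternatives covered background correction, normalization, filters, probe choice, deposited net intensities, the value table and each array alone. Array symbols are mouse names, and all 9 member symbols are current rat symbols in the RefSeq gene table used.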

Additional observations from a re-analysis of the deposited data

How the results depend on the processing

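No member passed 1.5-fold on both arrays under any setting compared. The number of member genes with one sign on both arrays moved most: it was 2 with normexp and global loess, 4 with print-tip loess, 4 with the authors' deposited net intensities, 5 with the value table and 1 with median centring. The median of the members, 0.01 with both arrays, ran from -0.18 to -0.04 on single arrays (without replicate 1 and without replicate 2). Of the 66 mean values of the 11 probes under 6 other settings, 64 moved by less than 1 SD over the arrays, a wide margin where the arrays are opposed. The 2 others were the 5′ probe of Hk1, at 0.14 with the value table, and Pfkfb1, at -0.31 with median centring. For Hk1 the average of the probes, 0.05, had the opposite sign to its brightest probe, -0.15. The cause was not tested. No paired analysis was possible because there is 1 pool per treatment and each ratio is already within an array. The dimmest member probe, that of Hk2 at 254 to 350 units, read 5.51 to 8.9 times its local background. Its mean ran from -0.02 to 0.02 over the 7 ways of processing.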
